A study of Homo sapiens with 12 samples.

Results

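Replication factor C is the clamp loader of DNA replication, and the 9 genes described here are its subunits, its clamp and the leading subunits of related loaders: RFC1, RFC2, RFC3, RFC4, RFC5, PCNA, CHTF18, RAD17 and ATAD5. They were taken by symbol from the 34694 genes of the deposited expression table. The set was chosen by the array signal of RFC3, which fell with both CREB shRNAs in these same data, and the other 8 were added as its complex partners and its clamp, so the fall of RFC3 against the control vector is a description and carries no test here. Of the 9 genes, 8 were measured above background and entered the tests, among 12464 genes in all. The probe that carries the symbol ATAD5 was detected on 0 of 12 arrays.

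The study asked which transcripts change when CREB, a transcription factor activated by cyclic AMP signalling, is knocked down in acute lymphoblastic leukemia (ALL). RNA of 4 human leukemia cell lines was hybridised to Illumina expression BeadChips: Jurkat and Molt4, which stand for T-cell ALL (T-ALL), and Nalm6 and RS4;11, which stand for B-cell precursor ALL (BCP-ALL). Each line had been transduced with 1 of 3 lentiviral pLKO.1-mCherry vectors, carrying the CREB shRNA shCREB2, the CREB shRNA shCREB3 or a Scrambled control sequence, and stably transduced cells were grown on before RNA was taken. That gave 12 arrays, 1 for each line and vector, so all groups share the lentiviral backbone, the lines are the replicates of a vector (n = 4), and no line has a repeat of its own.

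Replication factor C is a ring-like complex of a large subunit, RFC1, and the small subunits RFC2, RFC3, RFC4 and RFC5. It uses ATP to open the sliding clamp, a trimer of PCNA, and to close it round DNA at a primer end, where the clamp holds the replicative polymerases. The small subunits also serve loaders in which another protein stands in for RFC1: CHTF18, which acts in sister chromatid cohesion, RAD17, which loads a checkpoint clamp at damaged DNA, and ATAD5, which takes PCNA off DNA after replication. These genes are known for high expression in dividing cells, and in bulk RNA fewer dividing cells and less transcript per cell cannot be told apart.

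Values are quantile-normalized probe signals on the log2 scale, 1 probe for each gene, so a difference of 1 is a doubling. They compare arrays for 1 gene, and are not set against other genes, because probes differ in brightness. A gene passed a test at a Benjamini-Hochberg adjusted p-value under 0.05 over all 12464 genes. The arrays detected 14320 to 15660 of 47323 probes, and each T-ALL array detected 10 of 10 T-lineage markers, against 1 to 5 of 10 on BCP-ALL arrays. CD3E was detected on 6 of 6 T-ALL and 0 of 6 BCP-ALL arrays, but LCK on 6 of 6 of both. Of 9 B-lineage markers, 2 to 4 were detected on T-ALL and 7 to 8 on BCP-ALL arrays, with CD79A on 6 of 6 of both, VPREB1 on 4 of 6 T-ALL and 6 of 6 BCP-ALL arrays, and PAX5 on 0 of 12. 1 array, Nalm6 with shCREB2, differed most from the rest, with a highest correlation of 0.970 to any other array, while the other 11 arrays reached at least 0.987.

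The targeted transcript did not separate the vectors. CREB1 read 11.44 with shCREB2 and 11.62 with shCREB3 in Jurkat, against 11.46 with Scrambled. It read 12.02 and 12.16 in Molt4 against 11.70, 12.14 and 12.11 in Nalm6 against 11.84, and 11.72 and 12.25 in RS4;11 against 12.01, in the same order. It was thus lower than in Scrambled on 2 of 8 arrays, and the change averaged over both shRNAs was 0.18 ± 0.07 (SE, n = 4 lines, limma adjusted p = 0.20). CREB1 mRNA on these arrays thus gives no check of the vector labels, CREB protein was not analysed here, and "with shCREB2" and "with shCREB3" below mean the arrays so labelled.

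The upstream sequences of RFC3 and RFC1 are shown because, of the 8 member genes searched, only these hold a complete cyclic AMP response element (CRE). The CRE is the palindrome TGACGTCA that CREB is known to bind. Shown are the 150 bases before the annotated start of each gene, in RefSeq's GRCh38.p14. They are written in the direction of the gene, with the CRE in capitals. The RFC3 stretch lies at chr13:33817999-33818148 on the plus strand, and its CRE begins 78 bases before the start. The RFC1 stretch lies at chr4:39366363-39366512 on the minus strand, and its CRE begins 23 bases before the start.
RFC3: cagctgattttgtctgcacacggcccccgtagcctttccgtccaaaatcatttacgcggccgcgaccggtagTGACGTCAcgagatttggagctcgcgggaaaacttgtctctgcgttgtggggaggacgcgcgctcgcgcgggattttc
RFC1: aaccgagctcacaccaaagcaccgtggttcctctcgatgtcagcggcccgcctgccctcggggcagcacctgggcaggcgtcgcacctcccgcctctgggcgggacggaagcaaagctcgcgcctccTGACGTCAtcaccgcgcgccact

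The search covered the RefSeq windows of 250 bases before to 50 bases after a start, on both strands, and 8 of the 9 genes had at least 1 window. ATAD5 had none and was not searched. The complete CRE stood in 1.85% of all 35116 such windows, 649 in number. The shorter CRE core TGACG, which every complete CRE contains, was found without a complete CRE in PCNA, RFC2 and RFC4, while CHTF18, RAD17 and RFC5 had neither. With or without a complete CRE, the core stood in 24.6% of all windows. The 8 genes had 11 windows together, so shares of windows are not shares of genes. The letters TTTCCCGC, a form of the site of the E2F factors that drive S-phase genes, lay in RFC3, first base 55 before the start, and in PCNA, and in 1.63% of all windows. A match of letters says nothing about binding in these lines. The signals of both genes with a complete CRE follow, and they differed: RFC3 was lower than in Scrambled by 0.53 or more on all 8 shCREB arrays, and RFC1 was lower on 6 of 8. Over all genes, 450 of 12464 (3.61%) were lower than in Scrambled on all 8 arrays.

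RFC3, a small subunit of the ring, was lower with each shRNA in each line. In Jurkat it read 8.15 with shCREB2 and 7.54 with shCREB3, against 8.99 with Scrambled. In Molt4 it read 8.21 with shCREB2 and 7.61 with shCREB3, against 9.29 with Scrambled. In Nalm6 it read 7.51 with shCREB2 and 7.63 with shCREB3, against 9.29 with Scrambled. The drop was smallest in the other BCP-ALL line, RS4;11, where RFC3 read 8.68 with shCREB2 and 8.76 with shCREB3, against 9.29 with Scrambled. The highest shCREB array, at 8.76, lay below the lowest Scrambled array, at 8.99, so the groups did not overlap. That held for 25 of 12464 genes (0.201%), and the choice of RFC3 rests on this same contrast.

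The mean change of RFC3 was -1.08 ± 0.51 with shCREB2 and -1.33 ± 0.54 with shCREB3, and -1.20 ± 0.48 over both (SD, n = 4 lines each), which is 2.30-fold lower over both. Among 12464 genes on each array, RFC3 was the 6th from the lowest change in Jurkat and in Molt4 with shCREB3, the 8th and the 17th in Nalm6 with shCREB3 and with shCREB2, and the 13th and the 14th in RS4;11 with the same vectors. In Molt4 and Jurkat with shCREB2 it was the 54th and the 88th. In RS4;11, where the drop was smaller, 0 genes read lower by 1 or more with either shRNA. These ranks are a description, because RFC3 was chosen for its fall on these same arrays.

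The array holds 3 probes for RFC3, and they did not move together. The brightest, ILMN_1784860, gave the values above. The second, ILMN_1658143, was lower on all 8 shCREB arrays as well: it read 8.14 and 7.96 with shCREB2 and shCREB3 in Jurkat against 8.69 with Scrambled, and 8.05 and 7.71 in Molt4 against 8.82. In Nalm6 it read 7.27 and 7.54 against 8.72, and in the other BCP-ALL line 8.31 and 8.30 against 8.67. Its mean change over both shRNAs was -0.82, and the other BCP-ALL line again moved least.

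The third probe, ILMN_1711381, detected on 11 of 12 arrays, had no such drop. It read 7.96 with shCREB2 and 7.85 with shCREB3 in Jurkat, against 7.70 with Scrambled, and 7.48 and 7.53 in Molt4, against 7.58. In Nalm6 it read 7.26 and 7.28 against 7.27, and in the other BCP-ALL line 7.24 and 7.24 against 7.03. It was below Scrambled on 3 of 8 arrays, with a mean change of 0.08. In the BCP-ALL lines this probe lay near background, because the undetected ATAD5 probe read 6.83 to 7.05. Without background subtraction, a drop as large as that of the brightest probe could not show there, so its flatness in those lines is not informative. Jurkat and Molt4 left more room, and the changes with shCREB2 and shCREB3 were 0.26 and 0.15 in Jurkat and -0.10 and -0.05 in Molt4. Which part of the RFC3 transcript each probe reads was not determined, and its part in the difference between probes was not tested. The deposited table averages the 3 probes, and its mean change of RFC3 over both shRNAs was -0.80 on the log2 scale.

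**Figure D1:**
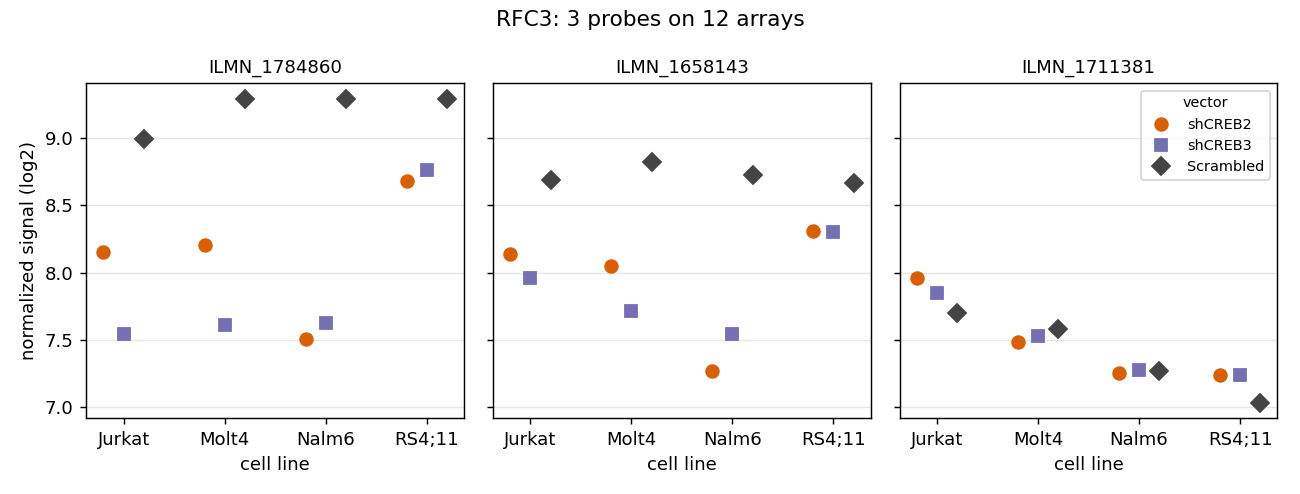
Normalized signal (log2, y axis) of the 3 RFC3 probes, 1 panel each, in the 4 cell lines (x axis). Each point is 1 array, with orange circles for shCREB2, purple squares for shCREB3 and dark diamonds for Scrambled. With ILMN_1784860 and ILMN_1658143 every shCREB array lies below every Scrambled array, and with ILMN_1711381 the mean change is 0.08.

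The other 7 measured genes changed far less than RFC3. Against Scrambled, with both shRNAs averaged, 138 of 12464 genes (1.11%) passed the test, 41 higher and 97 lower. Among the members RFC3 is 1 of them, from which nothing is read because this contrast chose it, and 0 of the other 7 passed. At an unadjusted p under 0.05, limma gave 1 of the 7, RFC5, where 2744 of 12464 genes stood. The methods' t-test gave 0 of the 7, where 1746 genes stood. The 7 changes ran from -0.15 for RFC4 to 0.05 for CHTF18, with a median of -0.12, beside a median of 0.01 over all genes, and 6 of 7 were below 0.

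RFC1, the large subunit, whose upstream CRE is shown above, had little change outside 1 array. It read 9.35 with shCREB2 and 9.39 with shCREB3 in Jurkat, against 9.44 with Scrambled, and 9.66 and 9.77 in Molt4, against 9.60. In Nalm6 it read 8.86 with shCREB2 and 9.44 with shCREB3 against 9.58, and in the other BCP-ALL line 9.36 and 9.46 against 9.51. The low array was Nalm6 with shCREB2, and the others overlapped with Scrambled. The change over both shRNAs was -0.12 ± 0.08 (SE, 95% confidence interval -0.31 to 0.07, limma adjusted p = 0.43). The dimmer second probe of RFC1 had a mean change of -0.01.

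RFC2, a small subunit, went both ways among the lines. It read 8.73 with shCREB2 and 8.55 with shCREB3 in Jurkat against 8.70 with Scrambled, and 8.35 and 8.21 in Molt4 against 8.45. It read 8.04 and 8.41 in Nalm6 against 8.51, and 9.12 and 9.16 in RS4;11 against 9.02. It was thus above Scrambled in the last line with both shRNAs and below it in Molt4 and Nalm6. The change over both was -0.10 ± 0.07 (SE, interval -0.26 to 0.06, limma adjusted p = 0.44). The dimmer second probe of RFC2 read 8.26 with shCREB2 and 8.07 with shCREB3 in RS4;11, against 8.12 with Scrambled. That probe was below Scrambled on 6 of 8 arrays, with a mean change of -0.12.

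RFC4, another of the small subunits, read 11.08 with shCREB2 and 11.26 with shCREB3 in Jurkat against 11.25 with Scrambled, and 11.14 and 11.16 in Molt4 against 11.23. It read 9.87 and 10.60 in Nalm6 against 10.67, and 10.83 and 10.67 in the other BCP-ALL line against 10.78. The groups overlapped, and Nalm6 with shCREB2 was the lowest array. The change over both was -0.15 ± 0.07 (SE, interval -0.33 to 0.02, limma adjusted p = 0.26).

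RFC5, the remaining small subunit, was lower than in Scrambled on 7 of 8 arrays, by little. It read 10.74 with shCREB2 and 10.76 with shCREB3 in Jurkat against 10.83 with Scrambled, and 10.42 and 10.46 in Molt4 against 10.68. It read 10.61 and 10.42 in Nalm6 against 10.68, and 10.26 and 10.08 in the other BCP-ALL line against 10.20. The lines differed more from each other than the vectors did. The change over both was -0.13 ± 0.05 (SE, interval -0.25 to -0.01, limma adjusted p = 0.21), and so did not pass over all genes.

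PCNA, the clamp, moved by at most 0.15 on 7 of 8 arrays. It read 11.39 with shCREB2 and 11.45 with shCREB3 in Jurkat against 11.53 with Scrambled, and 11.99 and 12.21 in Molt4 against 12.08. It read 11.06 and 11.70 in Nalm6 against 11.77, and 12.05 and 11.93 in the other BCP-ALL line against 12.04. Again the array of Nalm6 with shCREB2 was the one far below its Scrambled array, by 0.71. The change over both was -0.13 ± 0.07 (SE, interval -0.30 to 0.03, limma adjusted p = 0.32).

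The leading subunits of the alternative loaders showed no common direction. CHTF18 read 8.53 with shCREB2 and 8.33 with shCREB3 in Jurkat against 8.25 with Scrambled, and 8.69 and 8.67 in Molt4 against 8.40. It read 8.12 and 8.42 in Nalm6 against 8.54, and 8.19 and 8.24 in the other BCP-ALL line against 8.19. It was thus at or above Scrambled on 6 of 8 arrays and lower in Nalm6 alone, with a change over both of 0.05 ± 0.09 (SE, interval -0.15 to 0.26, limma adjusted p = 0.75).

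RAD17 read 7.84 with shCREB2 and 8.04 with shCREB3 in Jurkat against 7.93 with Scrambled, and 7.72 and 8.07 in Molt4 against 7.99. It read 7.51 and 7.87 in Nalm6 against 7.78, and 7.58 and 7.56 in the other BCP-ALL line against 7.63. It was lower with shCREB2 in all 4 lines, and higher with shCREB3 in all but RS4;11. The change over both was -0.06 ± 0.05 (SE, interval -0.17 to 0.05, limma adjusted p = 0.49).

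ATAD5 could not be followed by its own symbol. Its probe read 6.83 to 7.05 on the 12 arrays, with a lowest detection p-value of 0.0117. C17ORF41, an older symbol of the same gene in RefSeq, has 4 further probes that the symbol rule did not take, and 1 of them was detected on all 12 arrays. That probe read 7.13 to 7.64, with a change over both shRNAs of -0.05 ± 0.06 (SE, n = 4 lines, limma adjusted p = 0.71).

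**Figure D2:**
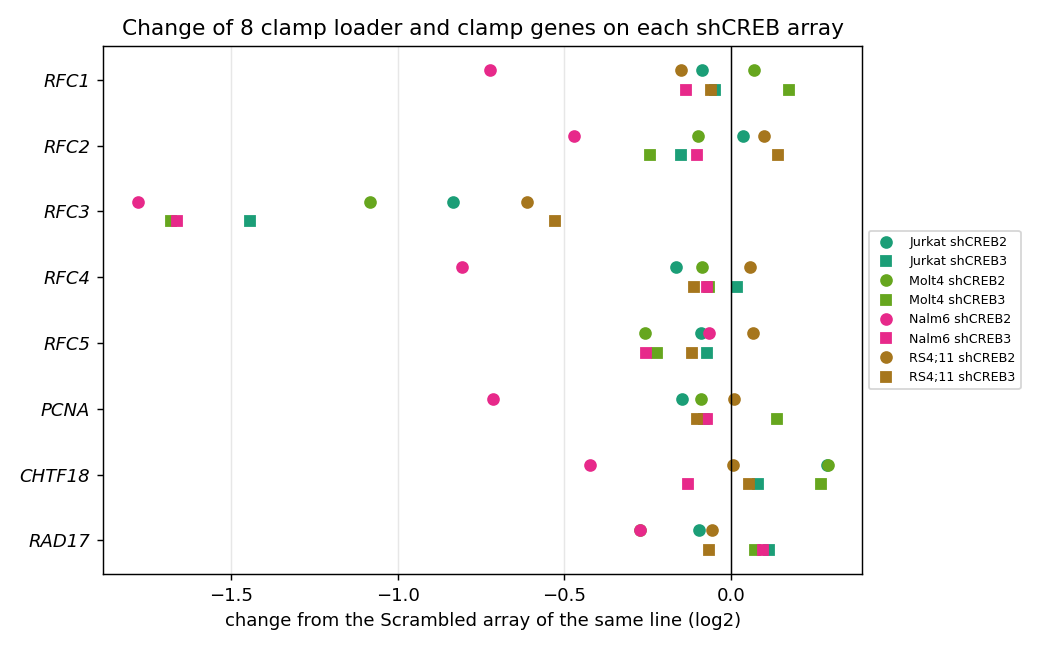
Change from the Scrambled array of the same line (log2, x axis) of the 8 measured genes (y axis) on each of the 8 shCREB arrays. Circles are shCREB2 and squares shCREB3, colours are cell lines, and the vertical line marks no change. RFC3 lies at -0.53 or lower on every array, while the other 7 genes lie between -0.27 and 0.29 on all arrays but Nalm6 with shCREB2.

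The array of Nalm6 with shCREB2 held the large drops of the other members. There 7 of 7 lay below Scrambled, with a median of -0.47, led by RFC4 at -0.81, RFC1 at -0.72 and PCNA at -0.71, while RFC5 changed by -0.07. On the other 7 arrays the median of these genes ran from -0.10 to 0.07, and 2 to 6 of 7 lay below Scrambled. The part of this array, which stands apart over all genes, was measured by leaving it out. The median change of the 7 genes with shCREB2 was then -0.08, against -0.17 with it. Over both shRNAs the median was -0.05 without that array and -0.12 with it, and 6 of 7 lay below 0 either way. RFC3 with shCREB2 was -0.90 without that array.

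With shCREB2 alone, 1010 of 12464 genes (8.1%) passed against Scrambled, and 0 of the 7 members other than RFC3. At an unadjusted p under 0.05, limma gave RAD17, with -0.17 ± 0.07 (SE, adjusted p = 0.14), where 3160 of 12464 genes stood. The methods' t-test gave none of the 7, where 1769 genes stood. With shCREB3 alone, 204 genes (1.64%) passed, and again 0 of the 7. Here limma at an unadjusted p under 0.05 gave RFC5, with -0.17 ± 0.06 (SE, adjusted p = 0.20), as did the methods' t-test. Both comparisons use the same 4 Scrambled arrays.

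The shRNAs were also compared with each other. RFC3 was not chosen by this contrast, but its choice asked for a fall with both shRNAs on the same arrays. For RFC3 the contrast is therefore not free of that choice. RFC3 was lower with shCREB3 than with shCREB2 in Jurkat and Molt4 and slightly higher in Nalm6 and RS4;11. The difference of shCREB3 minus shCREB2 was -0.25 ± 0.19 (SE, interval -0.68 to 0.18, limma adjusted p = 0.41), so a difference of either sign within that interval was not resolved. Over all genes 1825 (14.6%) passed in this contrast, 878 higher and 947 lower with shCREB3.

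RAD17 was the 1 member of 8 that passed between the shRNAs. It read 8.04 with shCREB3 against 7.84 with shCREB2 in Jurkat, 8.07 against 7.72 in Molt4, 7.87 against 7.51 in Nalm6 and 7.56 against 7.58 in RS4;11. The difference was present in 3 lines and absent in the last, with a mean of 0.23 ± 0.07 (SE, n = 4 lines, 1.17-fold, limma adjusted p = 0.048). With 14.6% of genes past this test, 1 of 8 members is near the background. The call was lost when any array of Jurkat, Molt4 or Nalm6 or the Scrambled array of RS4;11 was left out, and with the methods' t-test. The limma adjusted p ran from 0.017 to 0.24 over leaving out arrays and lines. The second RAD17 probe that was detected had the same pattern, at 7.86 with shCREB3 against 7.56 with shCREB2 in Jurkat, 7.84 against 7.51 in Molt4, 7.66 against 7.40 in Nalm6 and 7.26 against 7.35 in RS4;11.

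Of the other members between the shRNAs, PCNA, RFC1 and RFC4 were higher with shCREB3 by 0.21 ± 0.11, 0.21 ± 0.11 and 0.19 ± 0.13 (SE), with limma adjusted p-values of 0.24, 0.23 and 0.34. RFC2, CHTF18 and RFC5 differed by 0.02 ± 0.10, 0.03 ± 0.10 and -0.08 ± 0.06. Without the array of Nalm6 with shCREB2 the median difference of the 7 genes other than RFC3 was 0.01, against 0.19 with it.

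**Figure D3:**
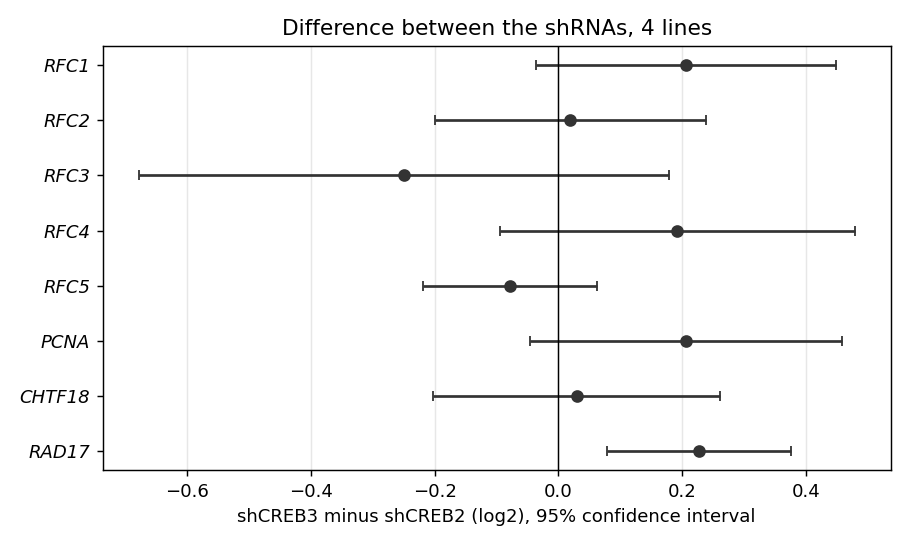
Difference shCREB3 minus shCREB2 (log2, x axis) of the 8 measured genes (y axis) over the 4 lines, as points with 95% confidence intervals from the limma fit of all 12 arrays. The interval of RAD17, around 0.23, leaves out 0, and the interval of RFC3 is the widest of the 8.

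Levels were then set against lineage, on means over the 3 vectors of a line (2 T-ALL and 2 BCP-ALL lines). These means include the shCREB arrays, so they carry any response to the shRNAs. For RFC4, the 2 T-ALL lines stood above the others: Jurkat averaged 11.20 and Molt4 11.18, against 10.76 in RS4;11 and 10.38 in Nalm6. All 6 T-ALL arrays lay above all 6 BCP-ALL arrays, as they did for 1370 of 12464 genes (11%). The difference of T-ALL minus BCP-ALL was 0.62 ± 0.17 (SE, 1.53-fold, limma adjusted p = 0.23), and did not pass. A second RFC4 probe had the same order of T-ALL and BCP-ALL arrays, from 10.95 up in T-ALL and up to 10.68 in BCP-ALL.

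Over all genes 131 (1.05%) passed between the lineages, and 0 of 8 members did by limma. RFC4 was the 1 member at an unadjusted p under 0.05, where 2139 of 12464 genes stood. RFC3 differed by -0.23 ± 0.30 (SE, interval -1.06 to 0.61, limma adjusted p = 0.73), on means that include its fall with the shRNAs. With 2 lines a side, intervals of this width leave most differences between lineages unresolved.

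The order of the lines differed from gene to gene. RFC2 was highest in RS4;11, at a mean of 9.10 over its 3 arrays, then 8.66 in Jurkat, 8.34 in Molt4 and 8.32 in Nalm6, and only the lowest 2 lines overlapped. RFC5 had another order, 10.78 in Jurkat, 10.57 in Nalm6, 10.52 in Molt4 and 10.18 in RS4;11, where Nalm6 and Molt4 overlapped. RS4;11 was thus the highest line for one small subunit and the lowest for another.

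PCNA averaged 12.09 in Molt4 and 12.01 in RS4;11, which overlapped, above 11.51 in Nalm6 and 11.46 in Jurkat, which also overlapped. RFC1 was highest in Molt4, at 9.68, and the other 3 lines, from 9.44 in RS4;11 and 9.39 in Jurkat to 9.29 in Nalm6, overlapped with their neighbours. With Scrambled alone the order differed, at 9.60 in Molt4, 9.58 in Nalm6, 9.51 in RS4;11 and 9.44 in Jurkat. For RAD17 (means 7.94 in Jurkat, 7.93 in Molt4, 7.72 in Nalm6 and 7.59 in RS4;11), CHTF18 (8.59 in Molt4 to 8.21 in RS4;11) and RFC3 (8.91 in RS4;11 to 8.14 in Nalm6) every pair of neighbours overlapped. The order for RFC3 reflects the size of its fall with the shRNAs. With Scrambled alone it read 9.29 in Molt4, Nalm6 and RS4;11 and 8.99 in Jurkat.

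**Figure D4:**
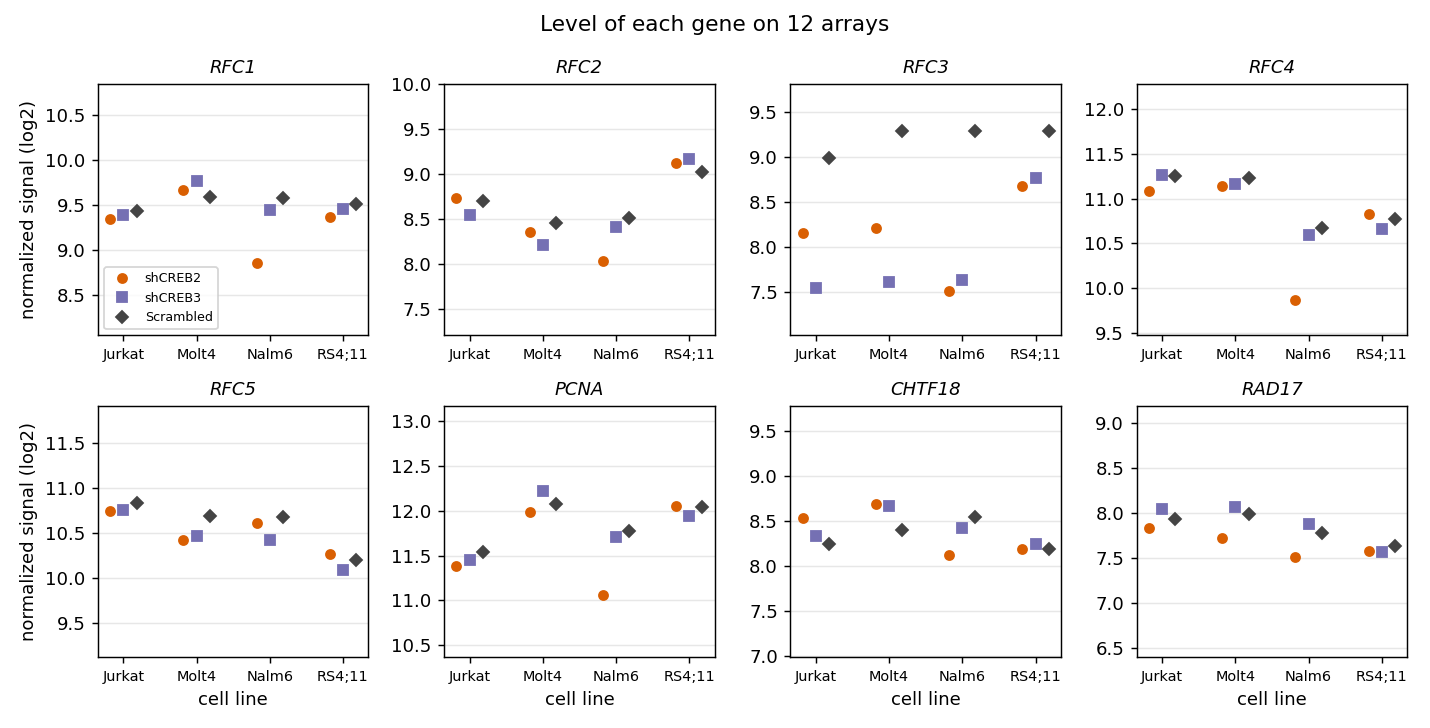
Normalized signal (log2, y axis, of the same span in each panel) of the 8 measured genes on 12 arrays, by cell line (x axis), with circles for shCREB2, squares for shCREB3 and diamonds for Scrambled. RFC3 separates by vector, RFC4 by lineage with the T-ALL lines Jurkat and Molt4 above, and RFC2 is highest in RS4;11.

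The response to the shRNAs was compared between the lineages as the change in T-ALL minus the change in BCP-ALL lines. For RFC3 this was -0.12 ± 0.33 (SE, interval -0.89 to 0.66, limma adjusted p = 0.98). Within BCP-ALL the lines disagreed, with mean changes over both shRNAs of -1.72 in Nalm6 and -0.57 in RS4;11, and the T-ALL lines lay between them. By limma 0 of 12464 genes (0%) passed this test, and 540 did at an unadjusted p under 0.05. Without RS4;11 or its Scrambled array, Nalm6 is the only BCP-ALL line left, and RFC3 differed by 0.46. Without Nalm6, RS4;11 is the only BCP-ALL line left, and RFC3 differed by -0.69. Each of these contrasts sets 1 line against 2, so neither can measure a difference between lineages. With all 4 lines CHTF18 was the member at an unadjusted p under 0.05, with 0.35 ± 0.13 (SE, limma adjusted p = 0.97). Its changes were above 0 in both T-ALL lines and below 0 in Nalm6.

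The genes whose pattern was most like that of RFC3 were not its partners. Likeness was Pearson's r over the 12 arrays with each line centred on its own mean. The 3 arrays of a line thus share their centre, and the points are not independent. The centred values of RFC3 are mostly its difference from Scrambled, by which it was chosen, so r is a description and carries no test. The highest r belonged to MUTED (0.991), QTRTD1 (0.979), RDH11 (0.975), STX6 (0.969) and GCH1 (0.965), and the lowest to STAU1 (-0.979), FAM100B (-0.978) and PRKAA1 (-0.976). MUTED read 8.76 with shCREB2 and 8.54 with shCREB3 in Jurkat against 8.95 with Scrambled, and 8.70 and 8.51 in Molt4 against 9.10. It read 7.71 and 7.73 in Nalm6 against 8.29, and 8.80 and 8.74 in the other BCP-ALL line against 8.93. Like RFC3 it was lowest against Scrambled in Nalm6 and Molt4 and moved least in RS4;11.

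Of the clamp loader genes, RFC5 and RFC2 had r of 0.66 each, at rank 876 and rank 894 of the 12463 genes other than RFC3. RFC4 had 0.43, RFC1 0.38 and PCNA 0.37, and RAD17 and CHTF18 were near 0, at 0.08 and -0.005. The targeted CREB1 transcript had -0.65.

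The machinery that works with the clamp was followed in 5 lists, of which 61 of 70 listed genes were measured. For the counts at an unadjusted p under 0.05 over both shRNAs given below, the background is 2744 of 12464 genes by limma. By the methods' t-test it is 1746. Over both shRNAs 1 of 61 genes fell and 0 rose, where 1.11% of all genes passed in either direction, and 50 of the 61 lay below 0, with a median of -0.10 beside 0.01 over all genes. As for the members, the largest drops came from 1 array. The median of the 61 genes was -0.61 in Nalm6 with shCREB2, where 53 lay below Scrambled. In Nalm6 with shCREB3 it was -0.11, where 47 did. On the arrays of the other lines it ran from -0.07 to 0.02, and 28 to 39 did.

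In the list of the replicative helicase, the complex that unwinds DNA ahead of the fork, 0 of 11 measured genes passed over both shRNAs, and 1 was at an unadjusted p under 0.05 by limma and by the methods' t-test. MCM10, which helps to start the helicase, changed by -0.59 ± 0.11 (SE, limma adjusted p = 0.051) and MCM4 by -0.27 ± 0.12, while GINS3 changed by 0.12 ± 0.08. With shCREB2 alone MCM10 fell by 0.97 on the log2 scale (adjusted p = 0.015). MCM10 and GINS3 were higher with shCREB3 than with shCREB2, by 0.77 and 0.45 (adjusted p = 0.021 and 0.048).

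Of the replicative polymerases and primase, 0 of 13 passed over both shRNAs, and 2 were at an unadjusted p under 0.05 by limma and by the methods' t-test. POLA1, the catalytic subunit of the polymerase that starts each strand, changed by -0.65 ± 0.12 (SE, limma adjusted p = 0.052) and was lower on 8 of 8 arrays. With shCREB2 alone it fell by 0.98 (adjusted p = 0.0083), and it was higher with shCREB3 than with shCREB2 by 0.65 (adjusted p = 0.018). POLD3 changed by -0.16 ± 0.07, POLD4 by 0.24 ± 0.07 and PRIM2 by 0.07 ± 0.05, and these did not pass.

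Of the genes for Okazaki fragment processing and the single-strand binding protein RPA, 0 of 9 passed over both shRNAs, and 3 were at an unadjusted p under 0.05 by limma and 2 by the methods' t-test. RPA1 changed by -0.27 ± 0.06 and FEN1, the flap nuclease that PCNA stimulates, by -0.51 ± 0.15 (SE, limma adjusted p = 0.063 and 0.10), while RNASEH2C changed by 0.07 ± 0.06. With shCREB2 alone RPA1 and DNA2 fell by 0.39 and 0.22 (adjusted p = 0.010 and 0.031), and with shCREB3 alone FEN1 fell by 0.78 (adjusted p = 0.043). Between the shRNAs FEN1 was lower with shCREB3 by 0.54 (adjusted p = 0.045), and RPA2, RNASEH2B and RPA1 were higher by 0.38, 0.34 and 0.23 (adjusted p = 0.013, 0.019 and 0.032).

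Of the partners of the alternative loaders, such as the checkpoint clamp that RAD17 loads, 0 of 11 passed over both shRNAs, and 2 were at an unadjusted p under 0.05 by limma and 0 by the methods' t-test. DSCC1, which joins CHTF18 in its loader, changed by -0.23 ± 0.09 and was lower on 8 of 8 arrays, and the checkpoint clamp genes RAD1 and RAD9A changed by -0.17 ± 0.06 and 0.07 ± 0.06 (SE). CHTF8 changed by 0.01 ± 0.05. Between the shRNAs TOPBP1 and WDR48 were higher with shCREB3, by 0.54 and 0.29 (limma adjusted p = 0.029 and 0.026).

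Of the PCNA-binding proteins and enzymes of PCNA ubiquitination, 1 of 17 passed over both shRNAs: HLTF, which extends ubiquitin chains on PCNA, fell by 0.39 (SE 0.07, limma adjusted p = 0.049). Without the array of Nalm6 with shCREB2 HLTF changed by -0.20 (adjusted p = 0.29), and over leaving out each array or line its adjusted p ran from 0.040 to 0.30. DNMT1, the maintenance DNA methyltransferase that PCNA recruits, changed by -0.32 ± 0.06 (adjusted p = 0.053), MSH3 by 0.16 ± 0.06 and KIAA0101 by 0.05 ± 0.06 (SE). With shCREB2 alone DNMT1 fell by 0.65 (adjusted p = 0.014), and it was higher with shCREB3 than with shCREB2 by 0.66 (adjusted p = 0.0074).

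With shCREB2 alone 5 of 61 genes passed, all lower, where 8.1% of all genes passed, and 4 of the 5, MCM10, POLA1, RPA1 and DNMT1, passed without the array of Nalm6 as well. Each of the 4 lost its call when some other array or line was left out, with highest limma adjusted p-values of 0.14, 0.13, 0.13 and 0.14. By the methods' t-test, with the adjustment over all genes added here, 0 of the 61 passed. With shCREB3 alone 1 of 61 passed, FEN1, where 1.64% of all genes passed. Between the shRNAs 10 of 61 passed, 9 higher and 1 lower with shCREB3, where 14.6% of all genes passed. With all 12 arrays in the fit each of these shares lies near its background.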

How the data were processed

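Per the labels and the paper's methods, RNA of 4 cell lines with 3 vectors was run on Illumina BeadChips, and the authors deposited probe signals exported without normalization, with a detection p-value per probe and array. Gene means on the natural log scale, after quantile normalization, were deposited as well (median 4.80 in each column). These deposited values belong to no other unit class, because 98.1% of the 567876 signal cells had lost the decimal mark. It was restored from the deposited gene means (tolerance 0.02), and 148 probes of 47 genes whose place stayed unsure were left out. Of 47323 probes 3270 carry no symbol. No background was subtracted.

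Restored signals were quantile-normalized and put on the log2 scale here from the authors' signals. Genes were kept if a probe was detected (detection p-value below 0.01) on 4 or more arrays, and are represented by the brightest such probe, which left 12464 genes. Tests used limma 3.58.1 in R 4.3.3, on within-line differences or with the line as a block, with Benjamini-Hochberg adjustment over 12464 genes. The 3 arrays of a line are paired because they are the same cell line, and deviations of arrays of 1 line correlated at 0.84 to 0.96 (12 pairs). Nothing says that the lines were cultured more than once, so p-values measure the spread between these 4 lines. Precision is limited by there being 12 arrays. The fits were also run on simulated data with normal noise drawn independently for each array, and the outcome is not given here. Python 3.11.15 with numpy 2.4.6, pandas 2.3.3, scipy 1.17.1 and matplotlib 3.10.9 did the rest. Motifs were searched in the RefSeq GRCh38.p14 windows, and gene names are those of the array file.

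The members and gene lists were chosen with earlier results of these data known. Named genes are the members, CREB1, up to 2 genes of each list with the largest positive and 2 with the largest negative change over both shRNAs, every listed gene past a test, and the 5 highest and 3 lowest r to RFC3. Alternatives were the deposited values, median scaling, normexp background correction with offsets 16 and 50, averaging a gene's probes, and stricter and no detection filters. Others were no replicate block, the methods' paired t-test, other sets of arrays in the fit, and leaving out each array and each line. The paper's methods name paired and unpaired t-tests without saying which served the arrays, and the methods' t-test here is the paired form.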

Additional observations from a re-analysis of the deposited data

Results flagged for a closer look

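With shCREB3, the RFC3 level of RS4;11, 8.76, lay far above the other lines, which read 7.54 to 7.63. With Scrambled, RFC3 in Jurkat, 8.99, lay below the other lines, all at 9.29. The PCNA change in Molt4 with shCREB3, 0.14, lay apart from the other lines, at -0.10 to -0.07. Of 45 groups of 4 values examined, 3 held such a value, and chance gives about 1 in 20.

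RAD17 differed between the shRNAs by 0.23 (log2, shCREB3 minus shCREB2, limma adjusted p = 0.048), higher with shCREB3 in 3 of 4 lines. Over leaving out arrays or lines the adjusted p ran from 0.017 to 0.24, and over the other alternatives from 0.030 to 0.86.

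A probe of C17ORF41, which RefSeq gives as an older symbol of ATAD5 and which the symbol rule left out, was detected on 12 of 12 arrays. Its change was -0.16 ± 0.08 with shCREB2 and 0.07 ± 0.08 with shCREB3 (SE, limma adjusted p = 0.25 and 0.74).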

How the results depend on the processing

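No RFC3 change against Scrambled turned its sign under any alternative. Over both shRNAs it ran from -1.72 (normexp, offset 16) to -0.64 (mean of the detected probes), and was -0.80 with the deposited values. The count of members past the test over both shRNAs, 1 (RFC3), was 0 with the deposited values, with normexp at offset 16, with the mean of the detected probes, with no replicate block and with the methods' t-test. With shCREB2 alone it was 0 with no replicate block, the t-test and only the 8 arrays compared, and with shCREB3 alone 0 with no replicate block and the t-test. Between the shRNAs the count, 1 (RAD17), was 0 with the deposited values, normexp at offset 16, no detection filter, the mean of the probes, no replicate block, the t-test and only the 8 arrays compared. Leaving out arrays or lines, these counts ran from 0 to 1 over both shRNAs, with shCREB3 and between the shRNAs, and from 0 to 2 with shCREB2. RFC3 over both shRNAs no longer passed without Jurkat or Molt4, without any 1 array of those lines, or without either shCREB array of Nalm6. RAD17 between the shRNAs still passed without RS4;11 or either of its shCREB arrays, and in no other such case. The causes were not tested.

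The count of all genes over both shRNAs, 138, was 0 with the deposited values, normexp at offset 16, the mean of the probes, no replicate block and the t-test, 78 with no detection filter, 245 with normexp at offset 50, 255 with median scaling and 272 with detection on all 12 arrays. With shCREB3, 204 became 126 with the deposited values, 92 with normexp at offset 16, 114 with no detection filter, 841 with only the 8 arrays compared, and 0 with no replicate block and the t-test. With shCREB2, 1010 became 0 with no replicate block and with only the 8 arrays compared, and 1 with the t-test. Between the shRNAs, 1825 became 397 with only the 8 arrays compared, 4 with no replicate block and 0 with the t-test. Between the lineages, 131 became 310 with normexp at offset 16, 8 with detection on all 12 arrays and 58 with no detection filter. With median scaling the calls split 127 higher and 128 lower over both shRNAs (41 and 97 by quantiles), 175 and 105 with shCREB3 (56 and 148), and 1257 and 598 between the shRNAs (878 and 947).

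Leaving out arrays or lines moved these counts too. The count over both shRNAs was 0 without Jurkat, without Molt4, without any 1 array of those lines or either shCREB array of Nalm6, 55 without the shCREB2 array of RS4;11, 230 without Nalm6 or its Scrambled array, and 405 to 411 without RS4;11 or its Scrambled or shCREB3 array. With shCREB2 it was 0 without Jurkat or Molt4, 55 to 594 without any 1 array of those lines, 277 without the Scrambled array of Nalm6, and at most 1502. With shCREB3 it was 0 without Jurkat or Molt4 or without the Scrambled or shCREB3 array of Jurkat, Molt4 or Nalm6, 1 and 41 without the shCREB2 arrays of Molt4 and Jurkat, 128 without Nalm6, 308 without RS4;11, 455 without its shCREB3 array and 839 without the shCREB2 array of Nalm6. Between the shRNAs it was 0 without Jurkat or Molt4, 671 to 902 without a shCREB array of those lines, 814 without the shCREB3 array of Nalm6, and at most 2211. Without a whole line, 1 lineage is left with 1 line, so no count between the lineages is given for those fits. The same holds for the difference in response between the lineages, 0 genes, where leaving out a Scrambled array drops its line as well.

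Signs turned only for changes that had not passed. With median scaling RFC1 with shCREB3 was 0.038, and PCNA between the lineages -0.048. With the deposited values RFC2 between the shRNAs was -0.025, RFC3 and PCNA between the lineages 0.042 and -0.027, the difference in response of RFC3 and RAD17 0.040 and -0.017, and CHTF8 over both shRNAs -0.030. With the mean of the probes RFC2 between the shRNAs was -0.036, RFC3 and PCNA between the lineages 0.11 and -0.072, and KIAA0101 over both shRNAs -0.065. Leaving out arrays or lines, CHTF18 ran from -0.021 to 0.16 over both shRNAs, from -0.043 to 0.19 with shCREB2, from -0.0059 to 0.18 with shCREB3 and from -0.092 to 0.11 between the shRNAs. RFC2 ran from -0.18 to 0.012 with shCREB2 and from -0.099 to 0.088 between the shRNAs. With shCREB3, RFC1 ran from -0.098 to 0.085, RFC4 from -0.15 to 0.036 and PCNA from -0.095 to 0.057. Between the lineages RFC2 ran from -0.60 to 0.18, RFC3 from -0.61 to 0.16 and PCNA from -0.30 to 0.33. The difference in response ran from -0.23 to 0.17 for RFC2, -0.69 to 0.46 for RFC3, -0.049 to 0.36 for RFC4, -0.15 to 0.012 for RFC5 and -0.063 to 0.12 for RAD17. Over both shRNAs CHTF8 ran from -0.0051 to 0.026, GINS3 from -0.0013 to 0.25 and KIAA0101 from -0.015 to 0.10.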
